A study of Mus musculus with 2 samples.

Results

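Arteries and veins are lined by endothelial cells that carry different genes. Here 10 of the 32285 genes in the matrices were followed in endothelial cells of perigonadal white adipose tissue (gWAT) from lean and obese mice. The arterial side was represented by 6 genes, Notch1, Dll4, Hey1, Efnb2, Sox17 and Gja4, and the venous side by 4, Nr2f2, Ackr1, Vwf and Ephb4. All 10 were chosen by name and were present in both libraries. On GRCm38 they lie on chromosomes 1 (Sox17 and Ackr1), 2 (Notch1 and Dll4), 3 (Hey1), 4 (Gja4), 5 (Ephb4), 6 (Vwf), 7 (Nr2f2) and 8 (Efnb2). They were read in cells with a UMI (1 counted RNA molecule) of at least 4 of the 7 endothelial genes Pecam1, Cdh5, Cldn5, Egfl7, Emcn, Plvap and Esam. This gave 780 of 10218 cells in the library from mice on a low-fat diet (LFD) and 745 of 8545 in the library from mice on a high-fat diet (HFD).

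Both single-cell libraries came from male Cyp1a1Cre x R26LSL-eYFP mice, kept for 12 weeks on food with 10% fat (LFD) or 60% fat (HFD). FICZ, a ligand of the aryl hydrocarbon receptor (AHR), was given to all mice at 10 mg/kg, and tissue was taken 5 days later. Cre is driven by the Cyp1a1 promoter in these mice, so that eYFP marks cells in which this AHR target gene was active then or earlier, and only eYFP+ cells were sorted. Endothelial cells that never switched on the promoter are thus left out by design. Mice of 1 diet were pooled and no cell can be assigned to a mouse. With 1 library per diet no test between diets was possible, and all intervals given are 95% intervals that cover counting error only.

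Notch1 is a receptor that is activated by Dll4, a ligand on neighbouring endothelial cells, and Hey1 is a transcriptional repressor switched on by this signal. The pathway is known for setting arterial identity and for restraining sprouting. Efnb2 (ephrin-B2), the transcription factor Sox17 and the gap junction gene Gja4 (connexin 37) mark arterial endothelium. In veins the nuclear receptor Nr2f2 (COUP-TFII) keeps the Notch programme low, Ephb4 is the receptor for ephrin-B2, Ackr1 is an atypical chemokine receptor of venules, and Vwf encodes von Willebrand factor, to which platelets bind.

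Because the cells had been collected for activity of an AHR target, the bases before the gene start are shown for Cyp1a1 itself, for Dll4 and Efnb2, which differed most by diet, and for Notch1. Each window holds the 250 bases before the RefSeq start on build GRCm38.p6, written 5′ to 3′ on the strand of the gene. Capitals mark the core of the AHR response element, GCGTG or its reverse complement CACGC.
Cyp1a1: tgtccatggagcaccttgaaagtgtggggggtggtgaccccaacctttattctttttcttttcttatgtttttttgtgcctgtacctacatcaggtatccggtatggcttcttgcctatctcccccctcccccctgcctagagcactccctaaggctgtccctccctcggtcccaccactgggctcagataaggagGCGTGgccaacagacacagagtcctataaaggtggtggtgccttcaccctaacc
Dll4: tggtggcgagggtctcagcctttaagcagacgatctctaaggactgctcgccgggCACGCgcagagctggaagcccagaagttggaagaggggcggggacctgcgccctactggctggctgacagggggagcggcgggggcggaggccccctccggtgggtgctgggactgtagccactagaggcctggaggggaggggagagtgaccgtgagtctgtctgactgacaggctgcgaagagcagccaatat
Efnb2: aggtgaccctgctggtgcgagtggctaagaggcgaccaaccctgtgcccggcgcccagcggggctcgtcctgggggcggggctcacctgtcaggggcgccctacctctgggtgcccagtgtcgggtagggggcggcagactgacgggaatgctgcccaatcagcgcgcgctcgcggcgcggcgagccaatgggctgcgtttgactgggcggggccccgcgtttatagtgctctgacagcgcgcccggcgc
Notch1: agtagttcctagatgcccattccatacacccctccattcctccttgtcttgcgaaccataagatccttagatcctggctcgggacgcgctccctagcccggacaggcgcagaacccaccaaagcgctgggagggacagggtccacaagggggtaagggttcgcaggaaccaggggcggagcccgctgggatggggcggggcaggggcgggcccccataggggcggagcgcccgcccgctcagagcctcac
The windows lie at chr9:57697363-57697612 on the plus strand, chr2:119325534-119325783 on the plus strand, chr8:8661243-8661492 on the minus strand and chr2:26503823-26504072 on the minus strand. In the GENCODE M21 annotation the Cyp1a1 window overlaps no exon but lies within a longer Cyp1a1 transcript. The Notch1 window lies within a longer Notch1 transcript and shares 2 bases with an exon, the Efnb2 window overlaps no gene, and 31 bases of the Dll4 window fall in an exon of Gm14207.

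The AHR core stood once in the Cyp1a1 window and once in the Dll4 window. Of the 7 members with a window in the RefSeq table (all but Hey1, Sox17 and Vwf), Dll4 was the only one that held it, against 28.2% of all 32851 windows of this length. Ackr1 was the only member with the RBPJ core TGGGAA (21.6% of all windows), the SOX core ACAAAG or ACAATG (25.2%) or the nuclear receptor core AGGTCA (14%). All 250 bases of the Ackr1 window lie in GENCODE exons, within Ackr1 and Cadm3. Both strands were searched for each motif, and a match is a run of letters and not a binding site.

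Endothelial cells had a median of 5589 UMIs in LFD and 3825 in HFD. Levels are CPM, the UMIs summed over the endothelial cells of a library and scaled to a total of 1e+06, and fewer cells with a gene cannot be told apart from less RNA per cell by them. Shares of cells are therefore given as well, after the 639 LFD and 617 HFD cells of at least 2000 UMIs had each been thinned to 2000 UMIs by a random draw. The endothelial genes used to choose the cells differed by diet themselves, from Plvap at a ratio of HFD to LFD of 0.60 (0.567–0.636) to Cldn5 at 1.82 (1.76–1.88). Cells with at least 2 genes of an immune, a stromal or a mural (pericyte and smooth muscle) marker list, called mixed from here on, numbered 189 (24.2%) in LFD and 211 (28.3%) in HFD and held 40.0% and 50.8% of the UMIs. The 9 mural markers summed to 188 CPM in LFD and 608 CPM in HFD, the 8 immune markers to 443 and 1381 CPM, with Jchain of plasma cells alone at 54.8 and 944 CPM, the 9 stromal markers, which include mesothelial ones, to 2539 and 2672 CPM, and the 5 cycling markers to 455 and 222 CPM. The 7 lymphatic markers summed to 109 and 143 CPM, with 29 and 17 cells holding at least 2 of them. Most of these sums was Pdpn, at 68.3 and 67.3 CPM, and Flt4, at 40.4 and 43.3 CPM, while Prox1 had 1 and 6 UMIs. Lyve1 had 3 UMIs in LFD, and 1 HFD cell held 43 of the 53 Lyve1 UMIs of that library. The part of these differences in the results was not tested, and values without mixed cells stand beside the diet ratio of each member. Gene lists by diet were read in all endothelial cells.

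The arterial genes together were higher in the HFD library, while the venous genes together differed by less than the counting error. The 6 arterial genes summed to 439 CPM (422–456) in LFD and 689 CPM (665–713) in HFD, a ratio of 1.57 (1.49–1.65). For the 4 venous genes the sums were 238 CPM (225–251) and 249 CPM (235–264), a ratio of 1.05 (0.969–1.14). The median gene with at least 20 UMIs in each library had a ratio of 1.09, a shift of 0.13 on the log2 scale. Relative to this median gene the arterial ratio was 1.44 (1.36–1.51), and the venous ratio 0.961 (0.887–1.04). This scaling divides every gene by the same number, so the step of the venous ratio from above to below 1 follows from it. Without mixed cells the unscaled ratios were 1.74 (1.63–1.85) and 1.04 (0.942–1.14).

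**Figure D1:**
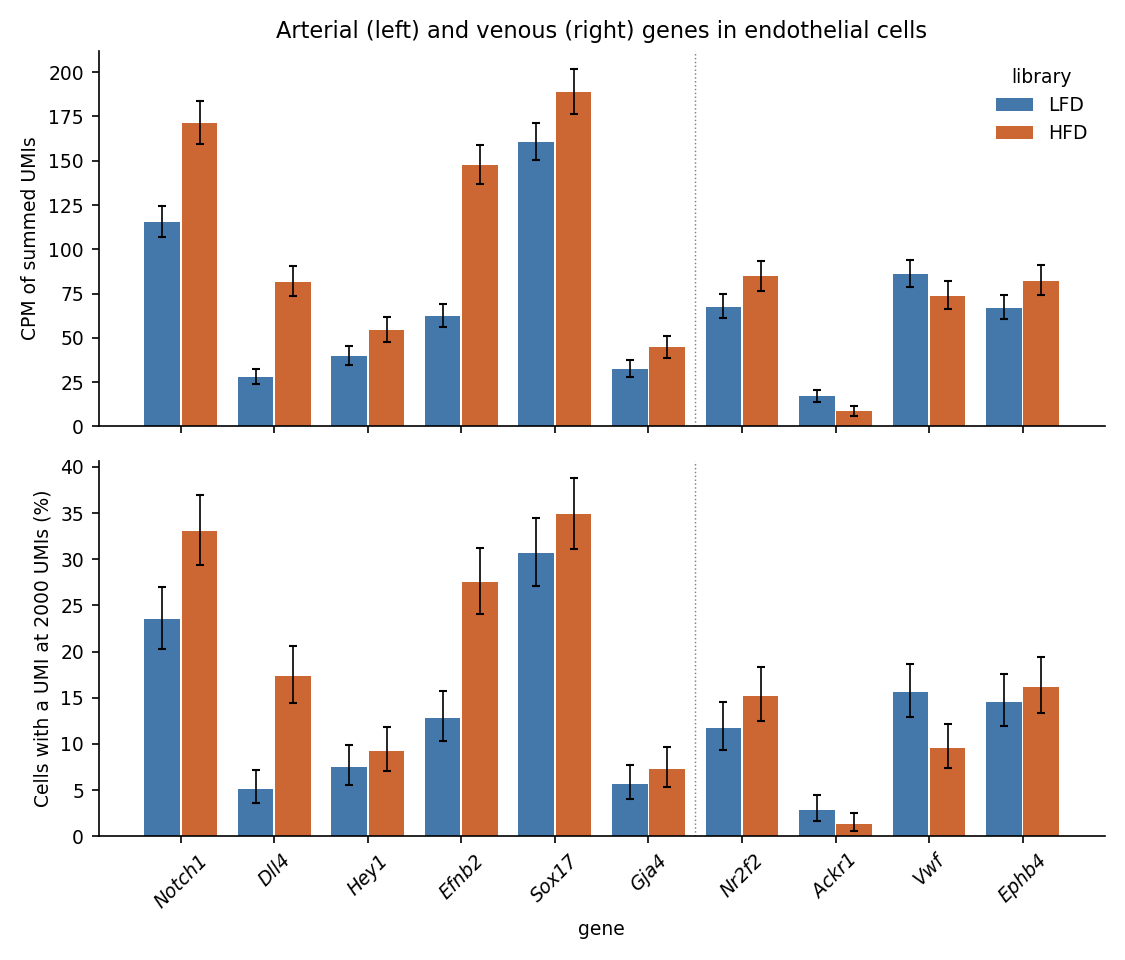
Level of each gene in endothelial cells of the LFD (blue) and HFD (orange) libraries as CPM (upper panel), and share of cells with a UMI after thinning to 2000 UMIs (lower panel, percent). Each bar is 1 library with its exact 95% counting interval, and the dotted line divides arterial from venous genes. The intervals of Notch1, Dll4 and Efnb2 do not overlap between diets in either panel.

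Of the Notch genes, the ligand differed more than its receptor. Dll4 had 28 CPM (23.9–32.7) in LFD cells and 81.7 CPM (73.6–90.4) in HFD, a ratio of 2.92 (2.42–3.53). A Dll4 UMI was found in 5.16% of thinned LFD cells and 17.3% of thinned HFD cells, an odds ratio of 3.85 (2.53–5.98). The ligand was thus detected in more HFD cells at equal depth, and its ratio without mixed cells was 3.46 (2.78–4.32). Its receptor Notch1 stood at 115 CPM (107–125) and 171 CPM (159.6–184), a ratio of 1.48 (1.34–1.65). Thinned cells with Notch1 made up 23.5% and 33.1%, an odds ratio of 1.61 (1.25–2.08). Without mixed cells the Notch1 ratio was 1.53 (1.35–1.74).

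Hey1, which is induced by Notch signalling, had 39.9 CPM (34.9–45.4) in LFD cells and 54.4 CPM (47.9–61.6) in HFD, a ratio of 1.36 (1.14–1.64). At equal depth 7.51% and 9.24% of cells had a Hey1 UMI, an odds ratio of 1.25 (0.823–1.91). The Hey1 difference was therefore beyond counting error as CPM and within it as a share of thinned cells. Without mixed cells the ratio was 1.48 (1.2–1.83).

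The ephrin pair differed in the same order, ligand before receptor. Efnb2 had 62.4 CPM (56.1–69.2) in LFD cells and 148 CPM (137–159) in HFD, a ratio of 2.37 (2.08–2.7). It was found in 12.8% and 27.6% of thinned cells, an odds ratio of 2.58 (1.91–3.5). Efnb2 is expressed in stromal cells too, and without mixed cells it stood at 62.8 and 196 CPM, a ratio of 3.12 (2.65–3.69). Its receptor Ephb4, the venous partner, stood at 67.1 CPM (60.6–74.1) and 82.3 CPM (74.2–91), a ratio of 1.23 (1.06–1.42). The shares of thinned cells with Ephb4, 14.6% and 16.2%, gave an odds ratio of 1.14 (0.826–1.56), which includes 1. Without mixed cells the Ephb4 ratio was 1.27 (1.07–1.5).

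Sox17, a transcription factor that promotes arterial fate, had 160.4 CPM (150.2–171) in LFD cells and 189 CPM (177–202) in HFD, a ratio of 1.18 (1.07–1.29). It was found in 30.7% and 34.8% of thinned cells, an odds ratio of 1.21 (0.948–1.54). The direction of the Sox17 difference turned with the cell filter: in the 320 and 407 cells of at least 1000 UMIs and under 5% mitochondrial UMIs the ratio was 0.91 (0.793–1.04). Without mixed cells it was 1.29 (1.15–1.43).

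Gja4, a connexin of arterial endothelium, had 32.7 CPM (28.2–37.7) in LFD cells and 44.6 CPM (38.7–51.2) in HFD, a ratio of 1.37 (1.12–1.67). The shares of thinned cells, 5.63% and 7.29%, gave an odds ratio of 1.32 (0.818–2.14). The 5 cells richest in Gja4 held 17.5% of its UMIs in LFD and 20% in HFD, and with every cell weighted equally the ratio was 0.951, on the other side of 1. Leaving out mixed cells gave 1.44 (1.11–1.87).

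Among the venous genes Vwf and Ackr1 were lower in HFD, and Nr2f2 was higher. Vwf had 86.1 CPM (78.7–94) in LFD cells and 73.8 CPM (66.2–82.1) in HFD, a ratio of 0.858 (0.745–0.986). Its share of thinned cells was 15.6% and 9.56%, an odds ratio of 0.57 (0.397–0.813). Vwf was thus found in fewer HFD cells, and the 5 richest cells held 9.64% of its UMIs in LFD and 15.3% in HFD. Without mixed cells the odds ratio was 0.539 (0.358–0.806) and the CPM ratio 0.946 (0.807–1.11). In cells of at least 1000 UMIs and under 5% mitochondrial UMIs the CPM ratio was 0.559 (0.391–0.793).

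Ackr1 had the fewest UMIs of the members, 98 in 26 LFD cells and 39 in 14 HFD cells. Its levels were 16.9 CPM (13.8–20.6) and 8.49 CPM (6.04–11.6), a ratio of 0.501 (0.337–0.734). Most of these molecules came from few cells, since the 5 richest held 54.1% of the LFD and 71.8% of the HFD UMIs. The shares of thinned cells, 2.82% and 1.3%, gave an odds ratio of 0.453 (0.169–1.11), so a difference in the number of Ackr1 cells was not detectable at this depth. In cells of at least 1000 UMIs and under 5% mitochondrial UMIs the HFD library held no Ackr1 UMI. Leaving out mixed cells gave a ratio of 0.473 (0.298–0.729).

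Nr2f2 had 67.6 CPM (61–74.6) in LFD cells and 84.7 CPM (76.5–93.6) in HFD, a ratio of 1.25 (1.09–1.45). It was found in 11.7% and 15.2% of thinned cells, an odds ratio of 1.35 (0.963–1.9). Nr2f2 is also a gene of stromal and mural cells, and its ratio depended on which cells were left out. It was 1.1 (0.902–1.35) without mixed cells, 1.53 (1.29–1.82) without cells holding a UMI of Ptprc (leukocytes) or Pdgfra (stroma), and 0.99 (0.777–1.26) in cells of at least 1000 UMIs and under 5% mitochondrial UMIs. Relative to the median gene, Nr2f2 at 1.15 (0.995–1.32), Sox17 at 1.08 (0.983–1.19) and Ephb4 at 1.12 (0.973–1.3) had intervals that include 1, and the other 7 genes did not.

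**Figure D2:**
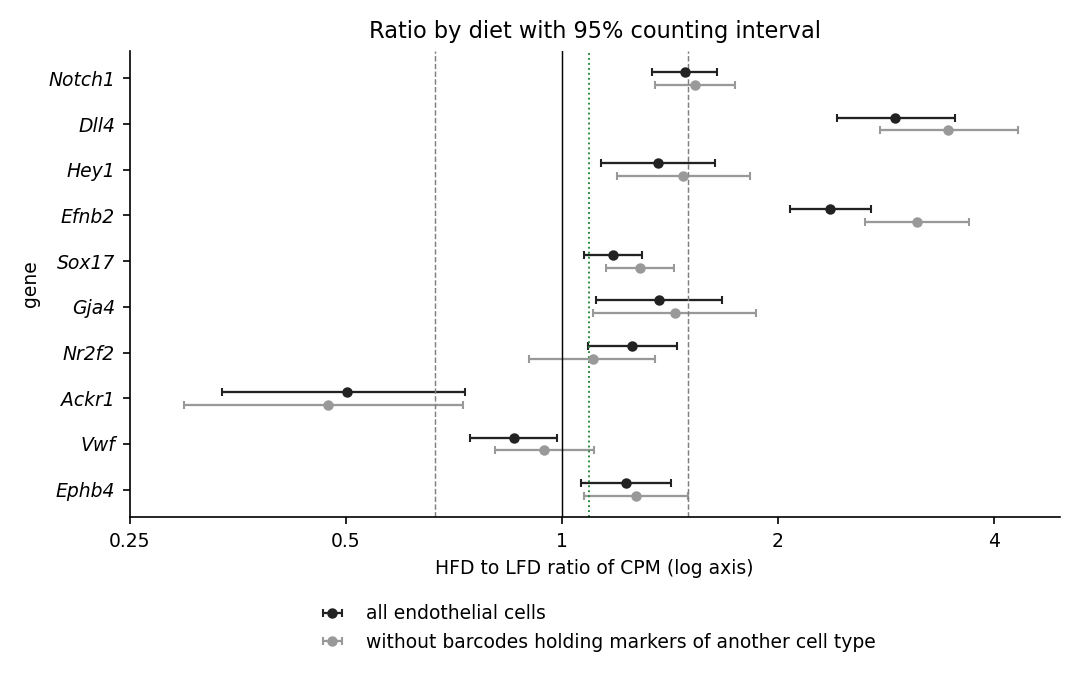
Ratio of HFD to LFD in CPM for each gene on a log axis, in all endothelial cells (black) and without mixed cells (grey), with exact 95% counting intervals. Dashed lines mark 1.5-fold in either direction and the dotted green line the median gene at 1.09; Dll4 and Efnb2 lie above 1.5 with their whole intervals in both sets of cells.

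At least 1.5-fold higher in HFD were 2 of the 10 genes, Dll4 and Efnb2, beside 17.9% of the 12273 genes with 20 or more UMIs over both libraries. At least 1.5-fold lower was 1, Ackr1, beside 6.43%. Relative to the median gene these shares were 12.6% and 9.8% and the members past the fold were the same 3. These counts are near the shares over all genes and are no result about the members.

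Other arterial genes were read from a list of 15, of which 13 had 20 UMIs. Of these 8 were at least 1.5-fold higher in HFD and 1 was lower, where 17.9% and 6.43% of all genes were, with a median ratio of 1.51 beside 1.1 over all genes tested. The secreted semaphorin Sema3g stood at 28 and 71 CPM, the Notch ligand Jag1 at 19.2 and 39 CPM and the chemokine receptor Cxcr4 at 9.85 and 29.4 CPM. Bmx and Alpl passed on fewer than 20 UMIs in each library, with intervals that include 1. Stmn2, a tubulin-binding protein, went the other way, with 124 and 53.6 CPM. Gja5, the connexin 40 of larger arteries, had 1 and 2 UMIs, and the Notch target Hey2 had 0 and 5.

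Of 15 other venous genes 1 was at least 1.5-fold higher and 4 were lower, where 17.9% and 6.43% of all genes were, with a median ratio of 0.932. The lower ones were the leukocyte adhesion receptors Selp (P-selectin), at 72.9 and 34.4 CPM, and Sele (E-selectin), at 7.26 and 2.4 CPM, the prostaglandin transporter Slco2a1, at 28.5 and 14.6 CPM, and Lrg1, at 272 and 148 CPM. Adgrg6 was the higher one, on 10 and 20 UMIs. Nrp2, a co-receptor of venous and lymphatic endothelium, had a ratio of 1.38 (1.26–1.51), and the apelin receptor Aplnr one of 0.748 (0.688–0.812), so genes short of the fold lay on both sides of 1.

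Capillary genes shared the direction of the arterial ones. Of 15 genes 7 were at least 1.5-fold higher and none lower, where 17.9% and 6.43% of all genes were, with a median ratio of 1.47, beside 1.42 for the 6 arterial genes. The fatty acid transporter Cd36 stood at 1295 and 2578 CPM and Btnl9 at 107 and 306 CPM. Gpihbp1, which holds lipoprotein lipase on the capillary wall, had a ratio of 1.44 (1.39–1.5).

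Within the wider Notch pathway 7 of 17 genes tested were at least 1.5-fold higher, Dll4 among them, and none was lower, with a median ratio of 1.45 beside 1.1 over all genes, of which 17.9% were higher and 6.43% lower. The target Hes1 stood at 103 and 193 CPM and Nrarp, a feedback inhibitor, at 81.6 and 128 CPM. Notch4, the other endothelial receptor, had a ratio of 1.14 (0.982–1.31). Notch3, at 6.4 and 42.2 CPM, and Heyl, at 1.73 and 9.58 CPM, are genes of mural cells, whose markers were higher in the same library. Of 5 ephrin-B and EphB genes tested 4 were higher, Efnb2 among them, with a median ratio of 1.9 and Efnb1 at 89.5 and 170.3 CPM. Efnb3, another of them, had 7 and 14 UMIs and an interval that includes 1. Of the 6 SoxF and COUP-TF genes, which include Sox17 and Nr2f2, 2 were higher, with a median ratio of 1.28, and Sox18, a relative of Sox17, had a ratio of 3.21 (2.83–3.65), with 59.6 and 191 CPM.

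Cyp1a1 itself had 454 CPM (437–472) in LFD cells and 457 CPM (438–477) in HFD, a ratio of 1.01 (0.951–1.07) that includes 1. The whole interval lies below the ratio of the median gene, 1.09. Without mixed cells the ratio was 1.14 (1.07–1.22), with its whole interval above 1. None of the 7 AHR genes read was 1.5-fold higher or lower, beside 17.9% and 6.43% of all genes. Short of the fold, Tiparp at 1.33 (1.19–1.47) and Arnt at 1.31 (1.07–1.62) had whole intervals above 1. The others included 1. Of thinned cells, 329 (51.5%) in LFD and 282 (45.7%) in HFD had a Cyp1a1 UMI, an odds ratio of 0.793 (0.631–0.996). Without mixed cells this odds ratio was 0.848 (0.642–1.12) and included 1. The vessel genes were then compared, within each library and at equal depth, between cells with and without Cyp1a1.

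At 2000 UMIs Notch1 and Sox17 were the members whose odds ratio lay above 1 with its whole interval in both libraries. Notch1 was found in 27.4% of LFD cells with Cyp1a1 and 19.4% of those without, an odds ratio of 1.57 (1.06–2.32). In HFD these shares were 41.1% and 26.3%, an odds ratio of 1.96 (1.38–2.8). Sox17 was found in 35.9% and 25.2% of LFD cells, an odds ratio of 1.66 (1.17–2.38), and in 41.1% and 29.6% of HFD cells, an odds ratio of 1.67 (1.18–2.36). Over 14 other settings the Notch1 odds ratio lay between 1.31 and 2.2 in LFD and between 1.5 and 2.1 in HFD, and that of Sox17 between 1.05 and 2.27 and between 1.2 and 1.86, all above 1. The Sox17 interval in HFD included 1 in a second random draw, at 1.34 (0.952–1.9), and at 1000 UMIs, at 1.34 (0.923–1.94), and without mixed cells it included 1 in both libraries, at 1.28 (0.85–1.94) and 1.34 (0.883–2.05). The Notch1 interval excluded 1 in 10 of the 14 settings in LFD and 12 in HFD, that of Sox17 in 10 and 9.

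For the ephrin pair the intervals that excluded 1 at 2000 UMIs were those of Efnb2 in HFD and Ephb4 in LFD. Efnb2 had an odds ratio of 1.39 (0.846–2.29) in LFD and 2.55 (1.75–3.74) in HFD, where 37.6% of cells with Cyp1a1 and 19.1% of those without had its UMI. Ephb4 had 2.21 (1.36–3.65) in LFD, from 19.1% and 9.68%, and 1.49 (0.946–2.34) in HFD. The library in which Ephb4 excluded 1 depended on the depth, with 1.64 (1.03–2.62) and 2.06 (1.31–3.28) in LFD and HFD at 3000 UMIs, and 1.39 (0.745–2.6) and 2.3 (1.37–3.9) at 1000. At 2000 UMIs the intervals of the libraries overlapped for each gene, and the difference between the libraries was not tested.

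Dll4 was the member without an odds ratio above 1 in both libraries. It was found in 15 of 329 LFD cells with Cyp1a1 and 18 of 310 without, an odds ratio of 0.775 (0.357–1.66). In HFD it was found in 52 of 282 and 55 of 335, an odds ratio of 1.15 (0.741–1.79). The odds ratios of Hey1, Gja4, Nr2f2, Ackr1 and Vwf lay between 1.07 and 2.0, and all of their intervals include 1. Of these, Hey1 in HFD depended on the random draw, with 2.85 (1.55–5.39) in a second draw, and Vwf on the depth, with 1.9 (1.24–2.95) in LFD and 1.94 (1.09–3.5) in HFD at 3000 UMIs. For Ackr1, with 18 and 8 detected cells, no difference in the share of cells was detectable at this depth. Its mean thinned UMIs were higher beside Cyp1a1, on 26 against 11 UMIs in LFD, a ratio of 2.23 (1.06–4.99), and 12 against 4 in HFD, a ratio of 3.56 (1.08–15.2). UMIs that share a cell are not independent, and without mixed cells both intervals include 1.

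**Figure D3:**
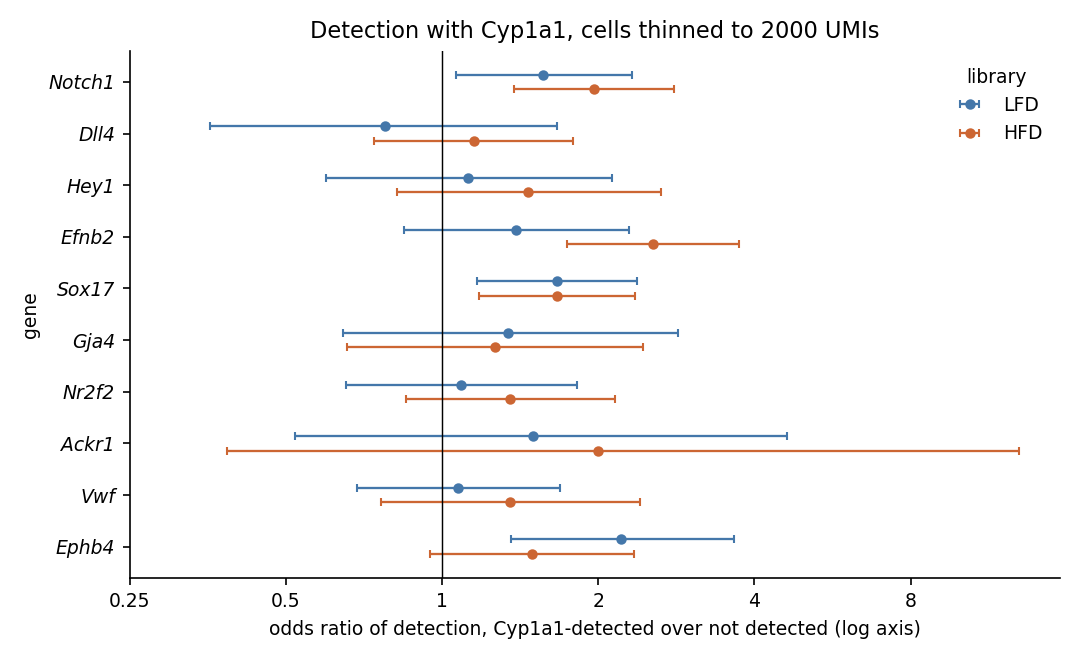
Odds ratio of detecting each gene in cells with a Cyp1a1 UMI over cells without, on a log axis, in LFD (blue) and HFD (orange) cells thinned to 2000 UMIs, with exact conditional 95% intervals. The intervals of Notch1 and Sox17 lie above 1 in both libraries, that of Ephb4 in LFD only and that of Efnb2 in HFD only.

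By the number of Cyp1a1 UMIs in the thinned cell, Notch1 was found in 19.4% of LFD cells with none and 36.7% of those with 4 or more. For Efnb2 in HFD these shares were 19.1% and 42.5%. Dll4 in HFD stood at 16.4% and 18.8%, within counting error of each other.

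**Figure D4:**
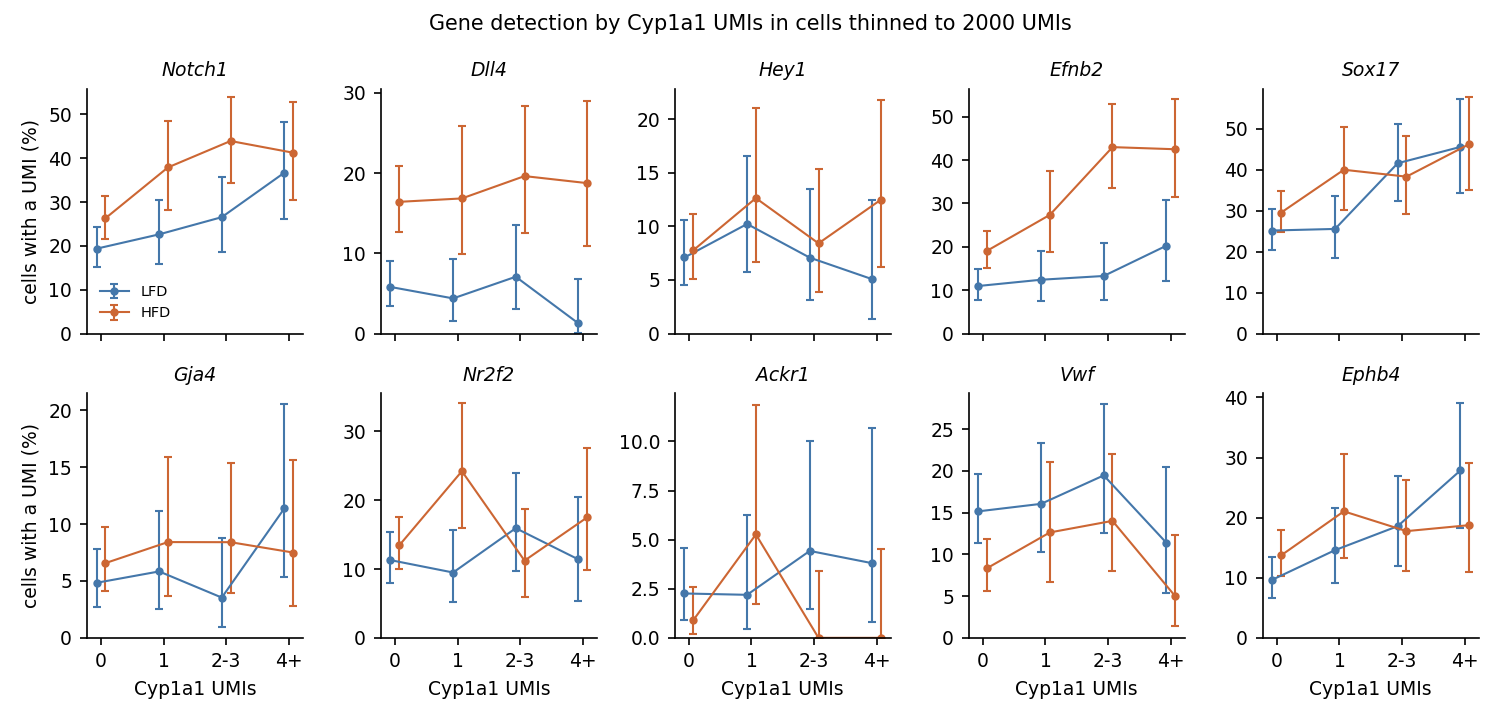
Share of cells with a UMI of each gene (percent, exact 95% intervals) against the number of Cyp1a1 UMIs in cells thinned to 2000 UMIs, for LFD (blue, 310, 137, 113 and 79 cells per bin) and HFD (orange, 335, 95, 107 and 80). Efnb2 in HFD stands at 19.1% with no Cyp1a1 UMI and 42.5% with 4 or more.

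Of the 9 members with 20 thinned UMIs in each library, 8 had an odds ratio above 1 in both, beside 34.0% of 6776 genes. The genes used to choose the cells had it too, all 7 of them in both libraries, with Pecam1 at 1.59 (1.07–2.37) and 2.72 (1.7–4.44). Capillary Cd36 had 3.39 (2.14–5.46) and 5.54 (2.26–16.3), and stromal Col1a1 lay below 1, with 0.692 (0.492–0.972) and 0.453 (0.297–0.683). The other venous genes lay on both sides of 1. Flrt2 had 0.495 (0.246–0.967) in LFD and 0.447 (0.179–1.03) in HFD, and Lrg1 2.04 (1.41–2.96) and 1.85 (1.17–2.92). Cells with Cyp1a1 thus held more of several endothelial genes but not of all. The part of this in the values of the members was not tested. Without mixed cells Notch1 had 1.63 (1.01–2.63) in LFD and 1.5 (0.977–2.31) in HFD, and Sox17 1.28 (0.85–1.94) and 1.34 (0.883–2.05), so that of these 4 intervals only that of Notch1 in LFD excluded 1. Efnb2 in HFD had 2.01 (1.27–3.21) and Ephb4 in LFD 1.84 (1.08–3.19) without mixed cells.

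Counted by mean thinned UMIs, Notch1 and Gja4 were at least 1.5-fold higher in cells with Cyp1a1 in both libraries, 2 of 9 members beside 3.78% of the 6776 genes. The Notch1 ratios were 1.62 (1.19–2.22) in LFD and 1.72 (1.34–2.22) in HFD. Those of Gja4, 1.74 (0.986–3.17) and 1.52 (0.907–2.56), had intervals that include 1. No member was 1.5-fold lower in both, beside 3.53%. Notch1 did not pass in 6 of 14 other settings, among them a second random draw, thinning to 3000 UMIs and the cells without mixed ones, where its HFD ratio was 1.32 (0.978–1.79). Which members passed varied with the setting, and without cells holding Ptprc or Pdgfra it was Efnb2 alone.

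Cells were next divided by the sides they showed at 2000 UMIs. In LFD 239 (37.4%) cells had a UMI of an arterial and of no venous member, 88 (13.8%) of a venous and of no arterial one, 135 (21.1%) of both and 177 (27.7%) of neither. In HFD the numbers were 295 (47.8%), 55 (8.91%), 155 (25.1%) and 112 (18.2%). The odds ratio of HFD over LFD was 1.53 (1.22–1.93) for arterial-only and 0.613 (0.421–0.887) for venous-only cells, so the first share was higher and the second lower in HFD. Without mixed cells these odds ratios were 1.77 (1.33–2.34) and 0.563 (0.363–0.864). At 3000 UMIs the odds ratio of the arterial-only share was 1.19 (0.919–1.55) and included 1, and at 1000 UMIs that of the venous-only share was 0.736 (0.519–1.04) and included 1. At these depths the sets describe which genes were detected and not vessel types.

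Cyp1a1 was found in 51.9% of arterial-only and 56.8% of venous-only cells in LFD, an odds ratio of 0.819 (0.485–1.38). In HFD the shares were 47.5% and 45.5%, an odds ratio of 1.08 (0.585–2.02). No difference between the sides was detectable, and the intervals leave room for one in either direction. With Vwf and Nr2f2 left out of the venous side, the LFD odds ratio was 0.435 (0.196–0.917), below 1 with its whole interval. Cells with neither side had Cyp1a1 in 42.4% and 25.9% of cases, and cells with both sides in 59.3% and 56.8%. Without mixed cells the shares were 51.0% (40.7–61.3) and 42.9% (28.8–57.8) for neither side. For both sides they were 61.9% (52.3–70.9) and 59.5% (49.7–68.7), so the intervals of neither and both then overlapped in each library.

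Arterial-only and venous-only cells also differed in genes that had not been used to divide them. Of 8 other arterial genes tested 3 were at least 1.5-fold higher in arterial-only cells in both libraries, Sema3g, the netrin receptor Unc5b and the chemokine Cxcl12, beside 4.94% of 4576 genes. Sema3g had 36 thinned UMIs in arterial-only and 0 in venous-only cells of LFD, and 80 and 3 in HFD. Unc5b, on 2 and 3 UMIs in venous-only cells, had an interval that includes 1 in LFD. Fbln5 of the same list was lower in arterial-only cells of HFD, with a ratio of 0.525 (0.376–0.743). Of 15 capillary genes 3 were also at least 1.5-fold higher in arterial-only cells of both libraries, Aqp7, Btnl9 and Lpl, and 1, Aqp1, in venous-only cells. Of 11 other venous genes tested 6 were at least 1.5-fold higher in venous-only cells, Selp, Vcam1, Lrg1, Il1r1, Ptgs1 and Bgn, beside 1.97%. The intervals of Ptgs1 include 1 in both libraries, and those of Vcam1 and Il1r1 in HFD. P-selectin (Selp) had 67 UMIs in venous-only and 6 in arterial-only cells of LFD, 30.3-fold more per cell. In HFD it had 27 and 5, 29-fold more per cell.

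The 5 genes that leaned most to venous-only cells in both libraries were Selp, Lrg1, Insr, Eln and Dnm3. The insulin receptor Insr was 4.48-fold higher per cell in LFD and 4.02-fold in HFD. The 5 that leaned most to arterial-only cells were no vessel genes but the globins Hba-a2, Hbb-bt and Hbb-bs of red blood cells, and Il1b and S100a8 of myeloid cells. Hbb-bs had 517 UMIs in arterial-only and 7 in venous-only cells of LFD, and 712 and 0 in HFD, and the part of such cells in the arterial-only set was not tested. Notch1 is expressed in immune cells too, and with Notch1 left out the odds ratio of HFD over LFD for the arterial-only share was 1.48 (1.16–1.88).

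Members were also compared in pairs. The number of thinned cells with both genes of a pair was set against the number expected from their shares, for the 27 pairs with at least 5 expected cells in each library. Of 10 arterial pairs 8 had a ratio of observed to expected above 1 in both libraries and none lay below 1 in both. All 3 venous pairs lay above 1 in both. Of the 14 pairs across the sides 4 lay above and 4 below 1 in both. Without mixed cells 6 of the 10 arterial pairs lay above and 1, Dll4 with Sox17, below 1 in both libraries, 2 of the 3 venous pairs lay above, and of the pairs across the sides none lay above and 2 below. Hey1 with Efnb2 was the pair with both intervals above 1, at 2.92 (1.73–4.62) in LFD and 1.72 (1.13–2.5) in HFD. Nr2f2 with Vwf stood at 1.96 (1.24–2.94) and 1.45 (0.77–2.47). Dll4 with its receptor Notch1 stood at 1.03 (0.446–2.03) and 1.05 (0.736–1.44), close to the number expected.

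**Figure D5:**
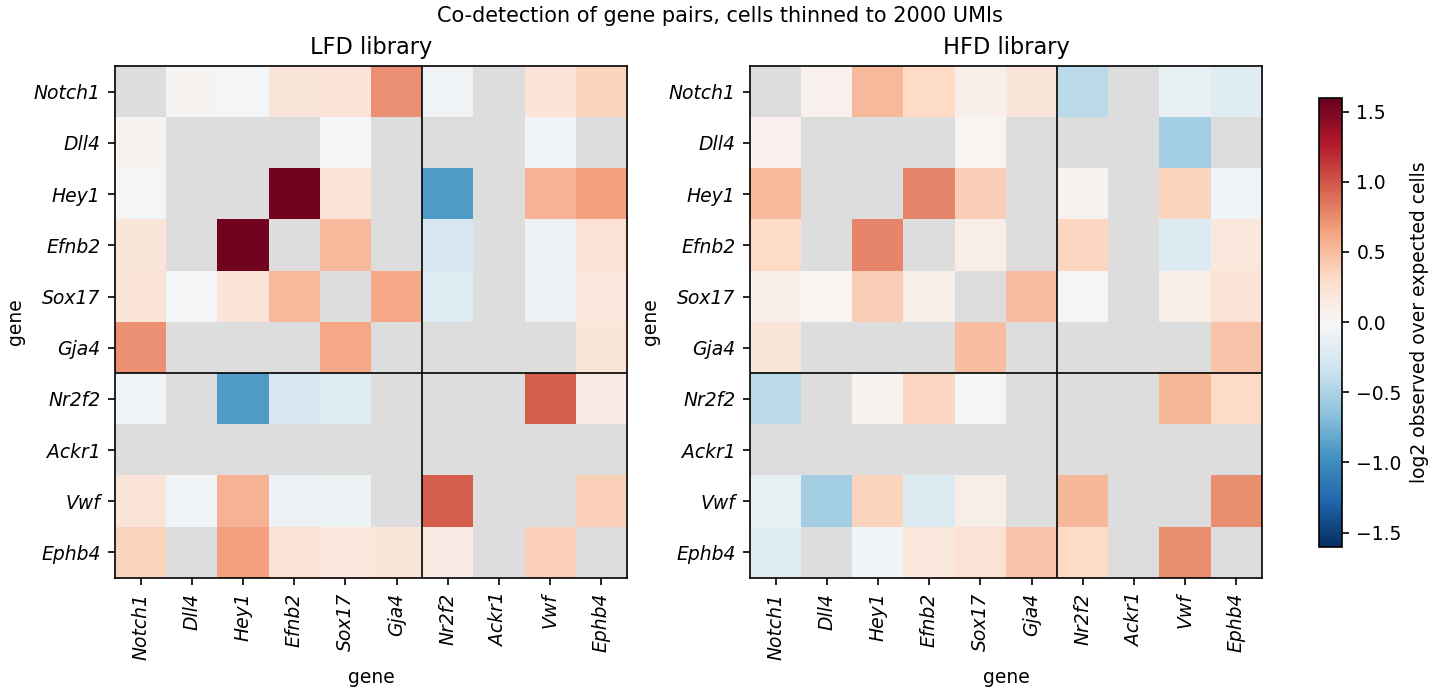
Log2 ratio of observed to expected cells with a UMI of both genes, for each pair in the LFD and HFD libraries at 2000 UMIs. Red is above and blue below the expected number, grey squares had under 5 expected cells in a library, and lines divide arterial from venous genes. Hey1 with Efnb2 and Nr2f2 with Vwf are red in both libraries.

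Genes found in at least 20 thinned cells of each library, and in at least 5 cells together with the member, were ranked by the lower of the ratios of observed to expected in the libraries. This left 2190 to 6465 genes per member. The first beside Hey1 was Gja4, with ratios of 3.7 and 3.61 in LFD and HFD. Next to Gja4 it was Htra1 (4.44 and 7.48), next to Efnb2 it was Sema3g (2.27 and 1.92), and Selp was the closest gene to both Nr2f2 (2.77 and 3.03) and Vwf (3.27 and 5.23). These are descriptions on 5 to 53 shared cells, all from the same 639 LFD and 617 HFD cells. The closest genes to Notch1, Dll4, Sox17 and Ephb4 were Msx1, Ppil4, Polr2d and Msrb3, none of them from the lists of vessel genes, and Ackr1 was in too few cells.

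The members differed in how far they were endothelial genes in this tissue. Sox17 stood at 0.225 and 0.231 CPM in LFD and HFD cells that held Pdgfra and none of the 7 endothelial genes, which marks them as stromal, and Dll4 had 2 and 1 UMIs in these 3894 and 1696 cells. Efnb2 at 53.9 and 77.3 CPM and Nr2f2 at 52.2 and 62.7 CPM were not confined to endothelium. At 2000 UMIs Efnb2 was found in 9.33% and 13.8% of Pdgfra cells in LFD and HFD, against 12.8% and 27.6% of endothelial cells. In cells that held Ptprc and none of the 7 endothelial genes, Notch1 stood at 45.2 and 26.8 CPM. These cells pool leukocytes of several kinds, whose mix was not compared between the diets.

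Cyp1a1 stood at 7.25 and 11.9 CPM in the Pdgfra cells and at 8.43 and 2.97 CPM in the Ptprc cells. At 2000 UMIs it was found in 1.22% and 1.38% of the Pdgfra cells, whose median depths before thinning were 11922 and 15256 UMIs, and in 51.5% and 45.7% of endothelial cells. Dll4 had 0 and 2 UMIs in all Ptprc cells. Cells with at least 3 mural marker genes and under 4 endothelial ones numbered 6 in each library, too few to read the members in.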

How the data were processed

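Single eYFP+ cells of the stromovascular fraction of gWAT were profiled in 1 LFD and 1 HFD library. Per the labels, the authors processed reads with Cell Ranger 4.0.0 on mm10 and used Seurat 4.1.0, and the gene annotation is not given in the sources used here. The deposited matrices hold raw UMI counts per gene and cell, 114311020 in 11281 LFD barcodes and 119498750 in 9631 HFD barcodes, and 27 barcodes occur in both libraries, none of them among endothelial cells. Cells of 500 to 40000 UMIs with under 12.5% mitochondrial UMIs were kept. No doublet caller was run, and mixed cells were kept in the main values and left out beside them. CPM were computed from UMIs summed over endothelial cells. For shares, 141 LFD and 128 HFD endothelial cells under 2000 UMIs were left out. Intervals are exact (Poisson for CPM, Clopper-Pearson for shares, conditional for ratios and odds ratios), at 95%. Analyses used Python 3.11.15, NumPy 2.4.6, SciPy 1.17.1 and pandas 2.3.3, and the scripts were tested on simulated data.

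The 10 genes and all lists were chosen with earlier results of these data known. All 10 genes and Cyp1a1 were named, with genes of the lists, the 5 genes leaning most to either set of cells and the closest neighbours of each member. The alternatives varied the endothelial gene requirement, cell filters, mixed, lymphatic and cycling cells, scaling, UMI minimum, thinning depth and seed, the Cyp1a1 cutoff and the members defining the sets.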

Additional observations from a re-analysis of the deposited data

How the results depend on the processing

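Of 479 ratios and odds ratios under another setting 36 lay on the other side of 1 from the main value, 3 of them where the main interval excludes 1 and 33 where it includes 1. Settings that left out cycling cells or chose cells by 5 endothelial genes (without Emcn and Plvap) were added after seeing the data. The ratio of the summed arterial genes was 1.47 with 3 of 7 endothelial genes required, 1.74 without mixed cells, 1.49 in cells of at least 1000 UMIs and under 5% mitochondrial UMIs, and 1.44 relative to the median gene. That of the venous genes was 0.868 under the stricter cell filter, 0.887 on thinned UMIs and 0.966 without cycling cells. Without Ptprc or Pdgfra cells it was 1.12 (1.02–1.22), with its whole interval above 1, so its direction was not settled. Relative to the median gene it was 0.961, which the scaling itself fixes. The stricter filter turned Sox17 to 0.91 and Nr2f2 to 0.99, and equal weight per cell turned Gja4 to 0.951. Genes at least 1.5-fold higher in HFD numbered 4 without Ptprc or Pdgfra cells (Dll4, Efnb2, Gja4 and Nr2f2, beside 20.3% of all genes) and 4 under the stricter filter (Dll4, Hey1, Efnb2 and Gja4, beside 16.7%), and 2 were lower (Ackr1 and Vwf) under the stricter filter, beside 10.7%, and on thinned UMIs, beside 9.85%. Members at least 1.5-fold higher with Cyp1a1 numbered 1 (Efnb2) without Ptprc or Pdgfra cells and 1 (Efnb2) under the stricter filter, where 5 members could be compared against 9 in the main setting, 4 at 3000 UMIs (Efnb2, Gja4, Vwf and Ephb4) and 4 when 3 of 5 endothelial genes were required (Notch1, Efnb2, Gja4 and Ephb4). The shares of all genes under these settings were 3.33%, 4.21%, 4.06% and 4.01%. The LFD odds ratio of Cyp1a1 in arterial-only against venous-only cells was 1.6 (0.95–2.71) at 1000 UMIs, 1.65 (0.475–5.3) in unthinned cells of 2000 to 4000 UMIs and 0.435 (0.196–0.917) without Vwf and Nr2f2. The odds ratio of the arterial-only share by diet was 1.19 (0.919–1.55) at 3000 UMIs. The causes were not tested. With 1 library per diet no library could be left out. No paired analysis was possible because each diet has 1 library and no test was made.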
